A study of Mus musculus with 2 samples.

Results

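F-box genes encode the substrate receptors of SCF ubiquitin ligases. A CHD2 peak lay at the start of 12 of the 77 that could be scored in mouse embryonic stem cells. That was 15.6%, near the 14.1% of all protein-coding genes. The members were every protein-coding gene of the RefSeq table whose symbol begins with Fbxo, Fbxl or Fbxw, 78 of 21887 genes. There were 36 Fbxo, 18 Fbxl and 24 Fbxw genes, and 15 of the Fbxw genes formed a single cluster, in which each gene lay less than 100 kb from the next. Fbxw27, in the cluster, had no known strand and was left out of the scores. A promoter peak was a peak whose summit lay within 1 kb of the outer 5′ end of the gene.

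In an SCF complex the F-box motif binds Skp1, Skp1 binds the scaffold Cul1, and Cul1 carries the RING protein Rbx1, which brings the ubiquitin-conjugating enzyme. The rest of the F-box protein picks the target. Fbxw proteins do so with WD40 repeats, Fbxl proteins with leucine-rich repeats, and Fbxo proteins have other domains or none that is shared. Through their targets these ligases act in the cell cycle, in signalling by Wnt and NF-κB and in protein quality control.

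CHD2, a chromatin remodelling enzyme with chromodomains, was immunoprecipitated from ES-E14, a line derived from a male embryo of strain 129/Ola, in 2 biological replicates of 1 group. No treatment, genotype or other cell type was compared, so nothing below rests on a test between conditions. The lists hold peaks and no RNA values, so the cell type was not checked against expressed markers. The optimal list, made by the authors from both replicates by the irreproducible discovery rate procedure, held 8282 peaks, and each replicate was read through its own 8282 strongest peaks. The value printed for a peak is the authors' signal for it, whose scale is not stated. The 12 signals in the optimal list are those of the pooled peaks of both replicates, so they are higher than the replicates' own and only ranks can be set side by side between lists.

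The promoters of the members differ widely in CpG content, and 6 of them are printed to show it. Each is the 200 bases before the RefSeq start of GRCm38.p6, read 5′ to 3′ on the strand of the gene, with CG dinucleotides in capitals. Fbxw11 (chr11:32642355-32642554, plus strand), Fbxo36 (chr1:84839641-84839840, plus strand) and Fbxo8 (chr8:56550954-56551153, plus strand) had the strongest promoter peaks among the members in the RefSeq promoter table. Fbxo46 (chr7:19119659-19119858, plus strand) had the weakest. Fbxw16 (chr9:109449141-109449340, minus strand) and Fbxw18 (chr9:109702701-109702900, minus strand) are clustered genes without a peak, and had the fewest and the most CG among those whose RefSeq start is the outer end of the gene.
Fbxw11: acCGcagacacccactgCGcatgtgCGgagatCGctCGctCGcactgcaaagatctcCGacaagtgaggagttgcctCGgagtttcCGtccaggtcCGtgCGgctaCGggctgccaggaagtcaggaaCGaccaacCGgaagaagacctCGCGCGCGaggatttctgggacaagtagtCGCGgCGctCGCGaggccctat
Fbxo36: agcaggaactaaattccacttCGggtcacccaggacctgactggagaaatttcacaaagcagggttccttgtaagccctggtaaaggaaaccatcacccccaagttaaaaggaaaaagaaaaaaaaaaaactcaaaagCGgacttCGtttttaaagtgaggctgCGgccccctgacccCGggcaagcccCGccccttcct
Fbxo8: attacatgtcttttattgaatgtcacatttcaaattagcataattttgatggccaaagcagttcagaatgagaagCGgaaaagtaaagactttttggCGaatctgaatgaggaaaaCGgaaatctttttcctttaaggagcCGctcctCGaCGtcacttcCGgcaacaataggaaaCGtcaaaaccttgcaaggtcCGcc
Fbxo46: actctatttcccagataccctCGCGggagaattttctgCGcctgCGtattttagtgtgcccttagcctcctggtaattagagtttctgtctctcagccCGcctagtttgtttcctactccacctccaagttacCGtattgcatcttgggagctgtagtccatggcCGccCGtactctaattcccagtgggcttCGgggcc
Fbxw16: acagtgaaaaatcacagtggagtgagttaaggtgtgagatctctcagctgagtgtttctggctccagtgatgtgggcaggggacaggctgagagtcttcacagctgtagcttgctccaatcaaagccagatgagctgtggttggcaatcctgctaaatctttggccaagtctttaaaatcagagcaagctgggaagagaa
Fbxw18: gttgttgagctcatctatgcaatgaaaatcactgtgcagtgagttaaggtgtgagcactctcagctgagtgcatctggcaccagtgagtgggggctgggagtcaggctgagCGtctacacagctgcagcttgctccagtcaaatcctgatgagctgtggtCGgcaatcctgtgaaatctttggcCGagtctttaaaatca
The stretch held 23 CG in Fbxw11, 9 in Fbxo8 and Fbxo46, and 6 in Fbxo36. It held 0 in Fbxw16 and 3 in Fbxw18, and the promoters of these 2 genes were 77.3% identical over the 300 bases of the table. The summit lay within the printed bases in Fbxw11 and Fbxo46, 10 bp and 60 bp before the start. In Fbxo36 it lay farther out, 279 bp before the start, and in Fbxo8 it lay 371 bp inside the gene.

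As a family the F-box genes had about as many promoter peaks as other genes. The 12 of 77 made up 15.6% (exact Clopper-Pearson 95% interval 8.32 to 25.6%), beside a background of 14.1% over 21480 protein-coding genes with a strand. The interval covers counting error over genes only. Replicate 1 gave 14 of 77 (18.2%; background 14.6%) and replicate 2 gave 11 (14.3%; background 14.2%). The share of the whole family is near the background in each list and is not a result about the family. Of 36 Fbxo genes, 8 had a peak (22.2%, interval 10.1 to 39.2%), 3 Fbxl genes of 18 (16.7%, 3.58 to 41.4%), 1 Fbxw gene of the 9 outside the cluster (11.1%, 0.281 to 48.2%) and 0 of 14 clustered Fbxw genes (0 to 23.2%). The interval of each of these 4 groups holds the background and overlaps the other 3, so the subfamilies could not be told apart in the optimal list. Without the cluster, 12 of 63 genes had a peak (19.0%, 10.2 to 30.9%).

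**Figure D1:**
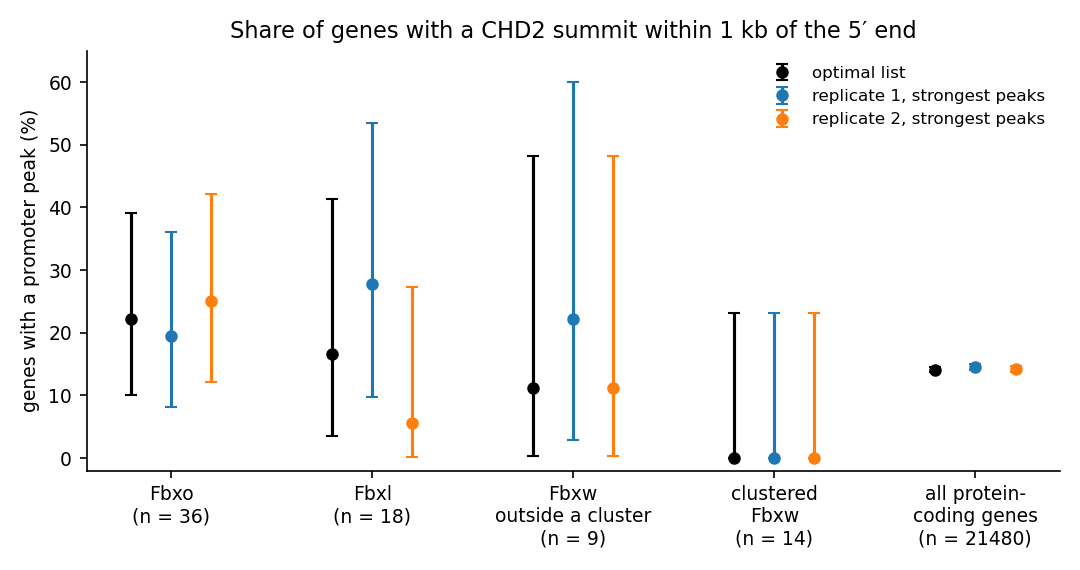
Percentage of genes with a CHD2 summit within 1 kb of the 5′ end (y axis) in each F-box group and in all protein-coding genes (x axis), for the optimal list and the 8282 strongest peaks of each replicate, with exact 95% intervals as bars. The clustered Fbxw genes stand at 0 of 14 in all 3 lists, and Fbxl genes move from 27.8% in replicate 1 to 5.56% in replicate 2.

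The Fbxl count depended on the replicate. Replicate 1 gave a peak to 5 of the 18 Fbxl genes and replicate 2 to 1, Fbxl13. The Fbxo count did not move in that direction, with 7 of 36 in replicate 1 and 9 in replicate 2. The Fbxw genes outside the cluster had 2 of 9 in replicate 1, Fbxw11 and Fbxw7, and 1 in replicate 2, Fbxw11. The Fbxl intervals of the replicates overlap (9.69 to 53.5% in replicate 1 and 0.141 to 27.3% in replicate 2). The same 18 genes were scored in both, so this overlap does not measure agreement. Of the genes found in replicate 1 only, Fbxl14 and Fbxl20 ranked 8303 and 10495 in replicate 2. Fbxl18 ranked 115172 there, and Fbxl12 had no relaxed peak. In the replicates' full lists of 300000 peaks, 12 of the 18 Fbxl genes had a summit in replicate 1 (66.7%, background 50.5%). Replicate 2 had 15 (83.3%, background 59.7%), so the background rose too. Whether the replicates differed in depth or in enrichment was not tested, since the lists give neither.

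The peaks of F-box genes lay lower than those of protein-coding genes at large, in median. Their median signal was 33.1 (16.7 to 87.6, n = 12), beside 45.0 over the 3035 protein-coding genes with a promoter peak. Their median rank was 3522, beside 2277 over those genes, and no member stood above rank 951. The median over all 8282 optimal peaks, distal ones included, was 29.6. In the replicates' own lists the members' median was 17.1 beside 22.8 in replicate 1 and 18.6 beside 22.7 in replicate 2.

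**Figure D2:**
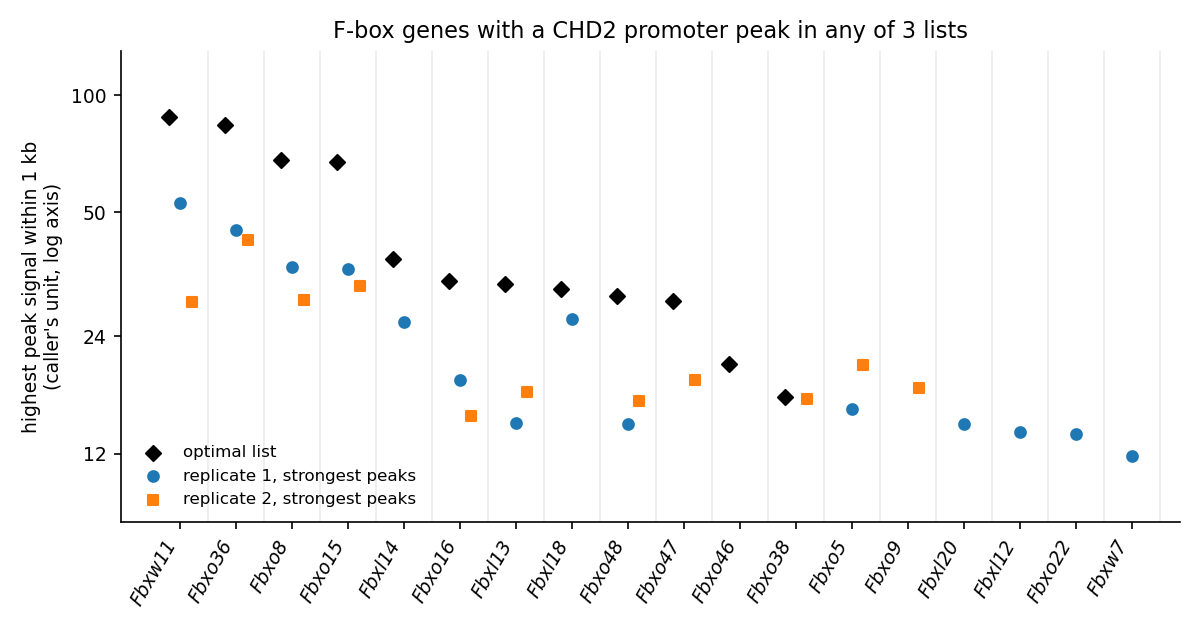
Highest peak signal within 1 kb of the 5′ end, on a log axis in the peak caller's unit, of the 18 F-box genes (x axis) with a promoter peak in the optimal list (diamonds) or among the 8282 strongest peaks of replicate 1 (circles) or replicate 2 (squares); a missing symbol means no such peak. Fbxw11, Fbxo36, Fbxo8 and Fbxo15 lead all 3 lists among the members, and Fbxo5 is the only gene with both replicate symbols and no diamond.

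The strongest promoter peaks in the optimal list belonged to 4 genes. Fbxw11, also called β-TrCP2, is the receptor that takes phosphorylated β-catenin and IκB to the proteasome. In the optimal list it had the strongest peak of the family at 87.6 (rank 951, chr11:32642365-32642724 on mm10). Its summit lay 10 bp before the 5′ end, and its signal was 52.9 in replicate 1 (rank 774) and 29.3 in replicate 2 (rank 1686). Fbxo36 had 83.8 (rank 1011; chr1:84839382-84839741), with 45.1 in replicate 1 and 42.5 in replicate 2, and a second optimal summit, 631 bp inside the gene, had 28.4. Fbxo8, whose protein carries a Sec7 domain of the kind that activates ARF GTPases, had 68.3 (rank 1327; chr8:56551345-56551704), with 36.3 and 29.7 in replicates 1 and 2. Its 5′ end lies 278 bp from that of Cep44, which is read the other way, and this summit lay 371 bp inside Fbxo8 and 649 bp from the start of Cep44. A second summit of 33.9 lay 200 bp before the 5′ end of Fbxo8 and closer to Cep44, at 78 bp.

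The last of the 4 was Fbxo15, long used as a marker of embryonic stem cells and a target of Oct4 and Sox2. Its promoter held 2 optimal peaks. The stronger, with its summit 80 bp before the 5′ end, had 67.2 (rank 1354), and the peaks that overlapped it had 34.9 in replicate 1 and 32.4 in replicate 2. The weaker, 608 bp before the 5′ end, had 44.6, with 35.7 in replicate 1 and 6.47 at rank 33302 in replicate 2. The highest signal of the gene in replicate 1 thus came from the weaker peak. Each of these 4 genes was thus in the optimal list and in both replicates. Fbxo36 ranked ahead of Fbxo8 and Fbxo15 in both replicates, while Fbxw11 was first in replicate 1 and behind the other three in replicate 2.

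Weaker promoter peaks, of 16.7 to 37.9, were found at 8 genes. Among the Fbxo genes, Fbxo16 had 33.4 (rank 3471; chr14:65266434-65266793), with 18.6 and 15.0 in replicates 1 and 2 and its summit 4 bp before the 5′ end. Fbxo48 had 30.4 (rank 3983; chr11:16951142-16951501), with 14.3 and 16.3 in the replicates. The summit is 98 bp past the 5′ end of Fbxo48. It lies 40 bp from the nearest boundary, start or end, of Eldr, a gene of a non-coding RNA. Both genes were called in all 3 lists.

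The 3 other Fbxo genes were each absent from at least 1 replicate's strongest peaks. Fbxo47, a gene needed for meiosis, had 29.5 (rank 4155; chr11:97883653-97884012) and 18.6 in replicate 2, while its peak in replicate 1 had 10.0 at rank 10665. A weaker optimal summit (rank 7563) lay 354 bp inside the gene. Fbxo46 had 20.4 (rank 6597; chr7:19119619-19119978), and its peaks of 10.0 in each replicate ranked 10674 and 11341, so neither was among the strongest 8282. Fbxo38, whose protein acts on the receptor PD-1 in T cells, had the weakest peak at 16.7 (rank 7303), with 16.5 in replicate 2 and 10.1 at rank 10416 in replicate 1. Its 5′ end lies 10 bp from that of Spink10, and the summit was 86 bp from Spink10 and 96 bp from Fbxo38, so the peak cannot be given to either gene.

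The Fbxl genes with a peak were Fbxl14, Fbxl13 and Fbxl18. Fbxl14, the receptor for the transcription factor Snail, had 37.9 (rank 2883; chr6:119480343-119480702) and 26.1 in replicate 1. In replicate 2 it had 11.6 at rank 8303, just past the limit of 8282. Fbxl13, a part of the dynein regulatory complex of cilia and flagella, had 32.8 (rank 3572; chr5:21645325-21645684), with 14.3 and 17.2 in replicates 1 and 2, and its 5′ end lies 308 bp from that of Armc10. Fbxl18 had 31.8 (rank 3744; chr5:142896093-142896452) and 26.6 in replicate 1, and it was not in the conservative list. No relaxed peak of replicate 2 overlapped it, and the highest within 1 kb there had 4.19 at rank 115172.

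A further 6 genes were outside the optimal list but within the strongest 8282 peaks of a replicate. Fbxo5, also called Emi1, an inhibitor of the anaphase-promoting complex, was the one found in both, with 15.6 in replicate 1 and 20.3 in replicate 2. Its pooled peak had a signal of 37.4 at pooled rank 2975 and was in the conservative list (chr10:5805343-5805702), 58 bp before the 5′ end. Of the 501 pooled peaks within 250 ranks of it, 26 (5.19%) were missing from the optimal list. This figure was sought after the value of Fbxo5 had been seen. The strand of Fbxo5 is minus in the RefSeq table of GRCm38.p6 and plus in the mm9 annotation, and the minus strand was used. Why so strong a peak is missing from the optimal list was not tested.

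Fbxw7, the receptor for cyclin E, Myc and Notch, had 11.8 in replicate 1 and 9.47 in replicate 2, the latter below the limit. It was in the conservative list at 15.9, 513 bp before the 5′ end. Fbxl20, also called Scrapper, which acts on RIM1 at synapses, had 14.3 in replicate 1 and was in the conservative list at 23.0. Fbxl12 had 13.6 and Fbxo22, a receptor for the demethylase KDM4A, had 13.5, both in replicate 1. Fbxo9 had 17.7 in replicate 2, and its 5′ end lies 15 bp from that of Cilk1.

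Agreement between the lists was 7 of the 12 members with an optimal peak (58.3%), beside 2170 of 3035 protein-coding genes (71.5%). A peak in both replicates' own strongest peaks was found for 8 of 77 members (10.4%; background 10.5%). Of these 8, 1 (12.5%) was missing from the optimal list, beside 88 of 2258 protein-coding genes (3.90%). The 1 kb rule decided few members. Fbxl14 was just inside it with its summit 855 bp into the gene (37.9). Just outside it were Fbxl20 at 1278 bp (39.3), Fbxl19 at 1626 bp (34.4) and Fbxo27 at 1866 bp (28.7).

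Some F-box genes lay near a peak that was closer to another gene. Fbxo24 lay 3672 bp from an optimal summit of signal 231, stronger than the optimal promoter peak of any member. That summit was 373 bp from the 5′ end of Lrch4. In the mm9 list, Fbxo24 itself had a promoter peak of 380 (rank 164), 248 bp from its mm9 start. It was the highest of any member in that list. Whether both are the same peak was not tested. Fbxo31 lay 6641 bp from a summit of 147, which was 4933 bp from Map1lc3b. A summit in the gene body more than 1 kb from the 5′ end was found in 9 members (11.7%), beside 9.22% of protein-coding genes. The highest of these was 71.4, in Fbxl19 and 777 bp from the 5′ end of Orai3. The one in Fbxo15 had 30.5 and lay 81 bp from the 5′ end of Timm21.

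In 12 members the 5′ end of another coding gene lay within 1 kb, and 3 of these had a promoter peak, Fbxo8, Fbxl13 and Fbxo38. That was 25.0% (5.49 to 57.2%), beside 36.0% of the 2408 protein-coding genes with such a neighbour and 11.4% of those without. Fbxo2, which binds N-glycans, and Fbxo44 are such a pair, with 5′ ends 15 bp apart, and shared 1 pooled relaxed peak of 6.22.

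The other members had weak peaks or none. Each relaxed list reaches down to 300000 peaks, and in the pooled one 52 of 77 F-box genes had a summit within 1 kb (67.5%; background 57.8%). All of these lay outside the cluster, where they were 82.5% of 63 genes. The count was 29 of 36 for Fbxo, 14 of 18 for Fbxl and 9 of 9 for Fbxw outside the cluster. The relaxed list of replicate 1 held 49 of the 77 (63.6%; background 50.5%) and that of replicate 2 held 55 (71.4%; background 59.7%). The median signal in the pooled list was 11.4, beside 11.6 over all protein-coding genes with a pooled relaxed peak. In all, 45 members had a relaxed peak and were in none of the 3 strong lists. No such count was made over all protein-coding genes, so the 45 are not a result about the family. Among them were Fbxl5, which senses iron (6.08 in the pooled list), Fbxo32 or atrogin-1, which acts in muscle wasting (7.64), and Fbxw8, the partner of Cul7 (5.97).

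No relaxed peak within 1 kb was found in any relaxed list for 14 members. The matching count over all protein-coding genes was not made. The 14 are therefore a description only. Outside the cluster the 14 were Fbxo43, or Emi2, which holds the egg in metaphase of meiosis II, Fbxo33 and Fbxl17. The remaining 11 were clustered Fbxw genes.

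The clustered Fbxw genes form a tandem array on chromosome 9 (chr9:109139454-109790660 on mm10). It holds 15 genes in 0.651 Mb with gaps of 9413 to 38741 bp, and no other coding gene lies in it. All 14 genes of known strand are on the minus strand. Fbxw13, Fbxw14, Fbxw15, Fbxw16, Fbxw19, Fbxw20, Fbxw21, Fbxw22, Fbxw23, Fbxw26 and Fbxw28 had no peak in any list. Fbxw24 had 4.37 and Fbxw25 3.72 in the relaxed list of replicate 1 alone, and Fbxw18 had 3.07 in that of replicate 2 alone. None of the 14 had a pooled relaxed peak. Fbxw27, scored at both ends because its strand is unknown, had no summit within 1 kb of either end in any of these lists.

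The gap was not limited to promoters. The optimal list held 0 summits in the whole array, while chromosome 9 held 429, or 3.55 per Mb. At that density an array of 0.651 Mb would hold few summits, so the 0 says little alone. The pooled relaxed list held 24 summits in the array, 36.9 per Mb beside 131 per Mb over the chromosome. Replicate 1 gave 43.0 beside 131 per Mb and replicate 2 gave 44.5 beside 129. The nearest optimal peaks lay 44.4 kb away on the side of Plxnb1 (signal 24.9) and 84.8 kb away on the side of Cdc25a (28.6), the latter 41 bp from the 5′ end of that gene.

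**Figure D3:**
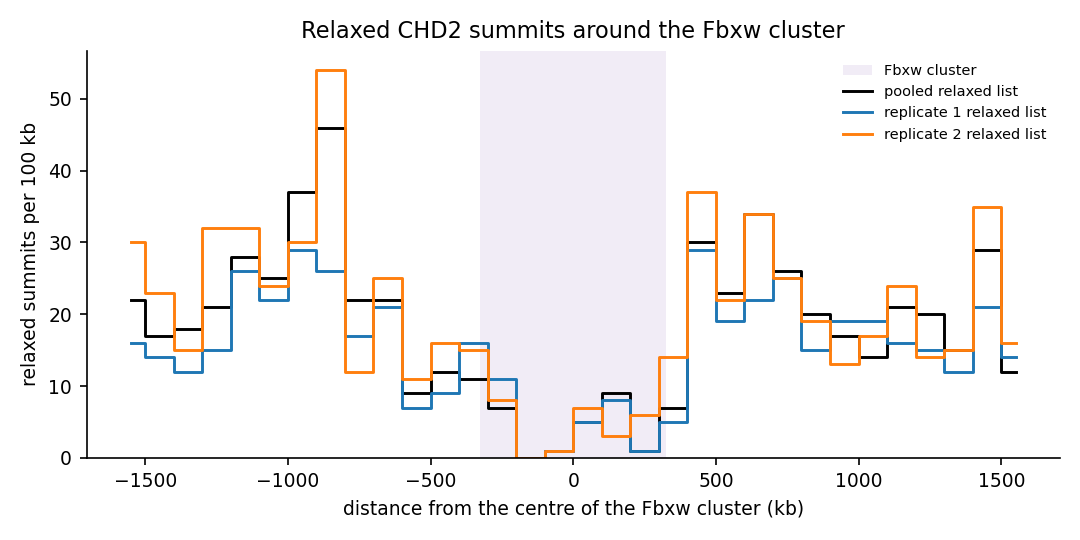
Number of relaxed CHD2 summits per 100 kb (y axis) against distance from the centre of the clustered Fbxw genes in kb (x axis), for the pooled list and each replicate, with the span of the cluster shaded. In the pooled list the 6 bins wholly inside the cluster hold 0 to 9 summits, with a median of 3, and the 24 bins wholly outside hold 9 to 46, with a median of 21.5.

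Other properties of these promoters moved with the missing peaks. The ratio of observed to expected CpG over 500 bp on each side of the start, measured on mm9, had a median of 0.0915 in the clustered genes (0.038 to 0.147, n = 12). It was 0.728 in the F-box genes outside the cluster (0.187 to 1.09, n = 63) and 0.581 over all protein-coding genes. Over all 2701 protein-coding genes with a ratio no higher than that of the highest clustered gene, 32 had a promoter peak (1.18%, 0.812 to 1.67%). Above it the share was 16.8%, beside 19.0% of the F-box genes.

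Most of the clustered sequences are also close copies of each other. Between the 300-base promoters of 12 clustered genes, identity had a median of 82.8% over 66 pairs (46.1 to 96.7%). It was 49.1% over 28 pairs of the 8 F-box promoters with a peak (42.5 to 53.0%). Fbxw23 had only 46.1 to 50.4% with the other clustered promoters, and the lowest of the remaining pairs had 64.8%. Of the 32-base words within 500 bp of the start, a median of 53.9% occurred once in the mm9 genome for the clustered genes (10.0 to 71.8%, n = 12), and 100% for the others (73.5 to 100%, n = 63). A read made up only of repeated words may fit more than 1 place in the genome, and read length was not considered. How the authors treated such reads is not given in the sources used here. Low CpG content and repeated sequence occur in the same 12 clustered genes and cannot be told apart as companions of the missing peaks. Fbxw23 and Fbxw25 had neither the CpG ratio nor the word share on mm9.

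**Figure D4:**
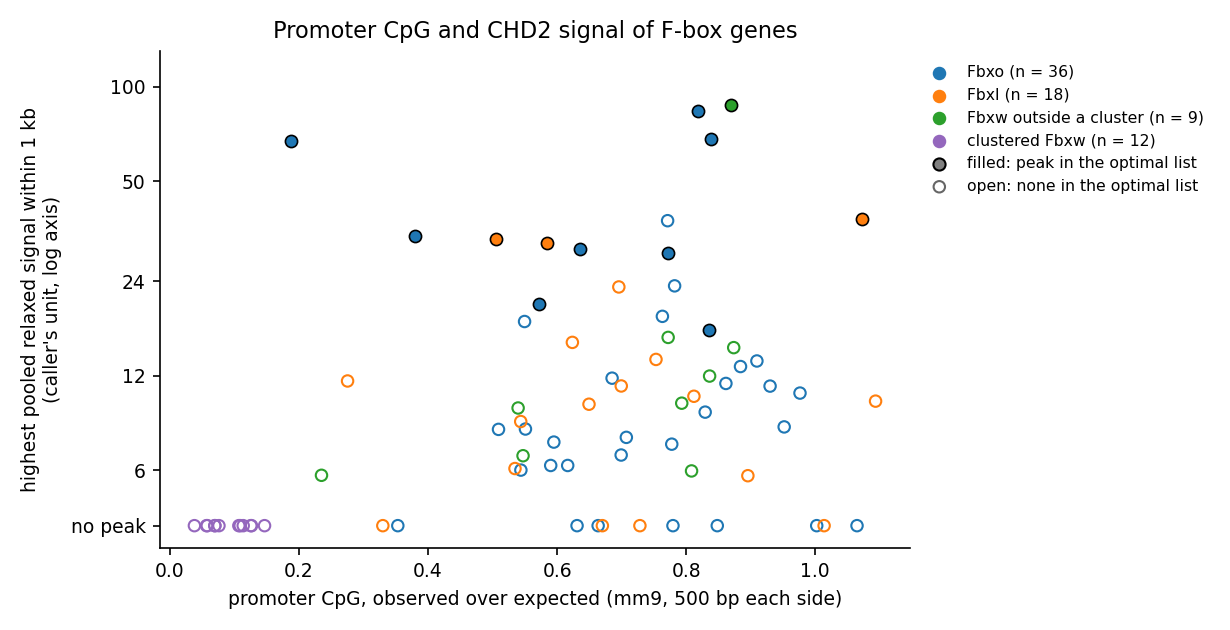
Highest pooled relaxed signal within 1 kb of the 5′ end, on a log axis in the peak caller's unit with genes without a peak at the bottom, against the promoter CpG ratio on mm9, for the 75 F-box genes with a value, coloured by group and filled where the optimal list holds a peak. The 12 clustered Fbxw genes lie together below a ratio of 0.147 without a peak, and Fbxo15 is filled at 0.187.

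Outside the cluster, members with and without a peak had similar CpG content. The median ratio was 0.703 in the 12 with an optimal peak and 0.728 in the 51 without. Over all protein-coding genes it was 0.757 in those with a peak and 0.509 in those without. Fbxo15 had the lowest ratio of the 63, 0.187, and only 57 of the 2989 protein-coding genes with a peak and a ratio were as low (1.91%). Fbxl14 was at the other end with 1.07. Fbxo33, with 1.06, had no relaxed peak at all.

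The RefSeq table held 300-base promoters, from 250 bases before the start to 50 from it on, for 59 of the 77 members and 17492 protein-coding genes in all. Exact matches to 9 short motifs were sought on both strands, and none of the motifs contains another. The ETS motif CCGGAAG was in 4 of the 8 promoters with a peak, those of Fbxw11, Fbxo8, Fbxo46 and Fbxo48. It was in 7 of 39 without a peak outside the cluster, in 0 of 12 clustered promoters and in 11.9% of all. In the printed sequences it begins 65 bases before the start of Fbxw11, and on the opposite strand 44 bases before that of Fbxo8.

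The Sp box GGGCGG was in 5 of 8 promoters with a peak, 28 of 39 without and 1 of 12 clustered (46.3% of all). The NF-Y box CCAAT was in 1, 13 and 2 of these (39.2% of all). TGCGCA, the core of the NRF1 site, was in 1, 5 and 0 (10.1%), ACTACA, found in Znf143 and Ronin sites, in 1, 5 and 0 (10.7%), and the CRE core TGACGT in 1, 4 and 0 (8.71%). The E-box CACGTG was in 0, 3 and 0 (7.91%), and TATAAA in none of the 59 (13.3% of all). AAGATGG, the core of the YY1 site, was in 8 of the 12 clustered promoters, 1 of 8 with a peak and 2 of 39 without (6.35% of all). These 8 clustered promoters share most of their letters, so they are not independent.

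The other genes of the pathway were read from 1 list of F-box proteins under other symbols and 4 lists of their partners. Of the 37 partner genes, 12 had an optimal promoter peak (32.4%, 18.0 to 49.8%), beside the background of 14.1%. Replicate 1 gave 14 and replicate 2 gave 10. The lists were drawn up with earlier results of these data known, so this share is a description and supports nothing about the pathway.

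The genes listed as F-box proteins under other symbols were not checked for an F-box, Ecd included. Of these 9 genes, 3 had a peak. They were Fbh1, a DNA helicase, with 169 (65.4 in replicate 1, 104 in replicate 2), Ccnf or cyclin F with 39.8 (12.0 and 27.3) and Ecd with 37.7 (21.6 and 15.1). Skp2, Btrc, Kdm2a, Kdm2b, Lrrc29 and Nccrp1 had none in the optimal list. Btrc, the paralog of Fbxw11, had 13.5 in replicate 1 and a pooled relaxed signal of 10.9.

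Of the SCF core, only Rbx1 of 5 genes had an optimal peak, at 71.9 (32.3 and 37.8 in the replicates). Skp1, Cul1, Cul7 and Rnf7 had none, with pooled relaxed signals of 8.18, 6.30, 12.0 and 19.1. Of 10 genes for attaching Nedd8 to cullins, 3 had a peak. They were Dcun1d3 (57.3), Nedd8 itself (36.7) and Ube2f (35.2), the last without a peak among the strongest of replicate 2.

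Of 14 genes for removing Nedd8 and exchanging receptors, 5 had a peak. Cand1, the exchange factor that frees Cul1 for another F-box protein, had 138 (68.2 and 77.6 in the replicates). The COP9 signalosome subunits Cops7b, Cops2, Cops8 and Cops4 had 70.3, 41.6, 19.3 and 19.2, and Cops8 was not among the strongest peaks of either replicate. Of 8 ubiquitin-conjugating enzymes and cofactors, Ube2d3 had 385, Ube2d2a 174 and Cks1b, the cofactor of Skp2, 24.3. Ube2d3, Ube2d2a, Fbh1 and Cand1 thus had stronger promoter peaks in the optimal list than any Fbxo, Fbxl or Fbxw gene.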

How the data were processed

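CHD2 ChIP-seq of ES-E14 was analysed from deposited peak lists of 2 biological replicates. The signal of each peak (column 7) is the authors' peak caller value. Normalization, caller, aligner and depth: not given in the sources used here. Lists were compared by rank, not by signal. Optimal and conservative lists come from the irreproducible discovery rate procedure, per the deposited descriptions. No column lacked a sample or group.

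Genes on mm10 were those of RefSeq, GRCm38.p6. The strand came from the RefSeq promoter table for 17492 protein-coding genes and by symbol from GENCODE M1 for 3988, and 407 genes had none. CpG and unique words were measured on mm9 and joined by symbol, and no coordinates were moved. Python 3.11.15, pandas 2.3.3, NumPy 2.4.6, SciPy 1.17.1 and Biopython 1.88 were used. Shares carry exact Clopper-Pearson 95% intervals. No test over samples was possible with 1 group, and genes are not replicates. Counting was tested on simulated data.

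The members and lists were chosen with earlier results of these data known. The named genes were the members with a promoter peak in the optimal list or in a replicate's strongest peaks, the clustered Fbxw genes, those just inside and outside 1 kb, and the partner genes with a peak. Other genes were named after their values were seen. A few values of single genes are not reported here. Alternatives covered the peak list, threshold, window, assignment, cluster gap and build.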

Additional observations from a re-analysis of the deposited data

How the results depend on the processing

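Of 75 alternative values, 68 lay within 1.5 times the main one or, for the clustered Fbxw count of 0, equalled it. Both ends of Fbxw27 could not change the Fbxo or Fbxl counts, so the 68 do not measure robustness. The count of F-box genes with a promoter peak, 12, ranged from 9 in the 4141 strongest optimal peaks to 17 in pooled peaks down to the weakest member. No share over all protein-coding genes was computed for either list, so the range is not a result about the family. By the way the lists were cut, the 9 could not exceed 12 and the 17 could not fall below it. The clustered Fbxw count was 0 under every alternative run. The 500 bp window, the 4141 strongest peaks and assignment to the nearest gene only can only remove genes. A 0 was thus fixed in advance for them. Another 7 values moved further, and the cause was not tested. Leaving out replicate 1 or 2 in turn gave 1 to 5 Fbxl genes in place of 3, and 1 to 2 Fbxw genes outside the cluster in place of 1. The conservative list also gave 2 such Fbxw genes. The 4141 strongest optimal peaks held 5 Fbxo genes in place of 8. Fbxl rose to 5 with a 2.5 kb window or with every RefSeq start counted. The mm9 list gave 13 of 75 members, beside a background of 11.5% over 20320 genes, gaining Fbxl20, Fbxo24, Fbxo27 and Fbxo5 and losing Fbxo38, Fbxo46 and Fbxo48. Fbxo24 had a signal of 380 there, 248 bp from its mm9 start. The pooled peaks down to the weakest member, every RefSeq start, the strand from GENCODE M1 alone and both ends of Fbxw27 were chosen after seeing the data. No paired analysis was possible because there is 1 group and no contrast. Depth is unknown, so a missing peak does not show that CHD2 is absent.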
